A study of Mus musculus with 6 samples.

Results

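The glucocorticoid receptors and 8 genes that respond to, activate or are shared with glucocorticoid signalling were examined in primary somatosensory (S1) cortex after whisker stimulation (WS) and in non-stimulated (NS) samples. The 10 genes, Nr3c1, Nr3c2, Hsd11b1, Fkbp5, Sgk1, Tsc22d3, Zbtb16, Cdkn1a, Mt1 and Mt2, were chosen by name as a readout of the stress hormone response to handling. All 10 were among the 14824 genes listed, and all 10 passed the filter on low counts that left 13747 genes for testing. RNA-seq was performed on 3 NS and 3 WS libraries of wild-type (WT) mice of the C57B6 strain at postnatal day 21, 90 minutes after the last stimulation. WS mice had their right whiskers moved by hand every day while they were gently held, and the NS samples are labelled as having no treatment. In the imaging part of the study NS was the cortex on the unstimulated side of the same mice. For RNA-seq, the captions name as many mice as a group has libraries without saying whether they were counted per group, so the libraries of NS and WS may be the sides of the same mice. Whether mice of NS libraries were held is not stated either.

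Glucocorticoids are steroid hormones of the adrenal gland, released when an animal is stressed and also in a daily rhythm, and they reach the brain with the blood. In the cell they bind the glucocorticoid receptor or the mineralocorticoid receptor, which leave their chaperones, enter the nucleus and switch target genes on or off within minutes to hours. A rise of Fkbp5, Sgk1, Tsc22d3 and Zbtb16 is a well known part of this response in the brain, and the hormone acts on the whole body rather than on the cortex of one side. Were NS and WS sides of the same mice, or NS mice held alike, comparing WS with NS could not show a response to handling.

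No difference between WS and NS was detected for any of the 10 genes. A gene was called where its log2 fold change was above 1 or below -1 and edgeR's quasi-likelihood fit gave a Benjamini-Hochberg adjusted p under 0.05, and this held for 0 of 10, where 0.0291% of all tested genes were called. At an unadjusted p under 0.05 the count was 0 of 10 by edgeR and 0 of 10 by DESeq2, where edgeR gave 1.19% of all genes. The 3 WS values lay on one side of the 3 NS values in 0 of 10 genes, against 6.27% of all genes (3.11% above and 3.16% below). The log2 fold changes ran from -0.14 to 0.15, with 6 genes higher and 4 lower in WS, and their median was 0.02. Over all tested genes the median was 0.01, and 53% lay above 0. In the paragraphs on single genes the adjusted p of edgeR's test rounded to 1.00 for each of the 10. Replicates are separate samples by their labels, which do not say that each is a separate mouse, so p-values measure the spread between these samples.

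**Figure D1:**
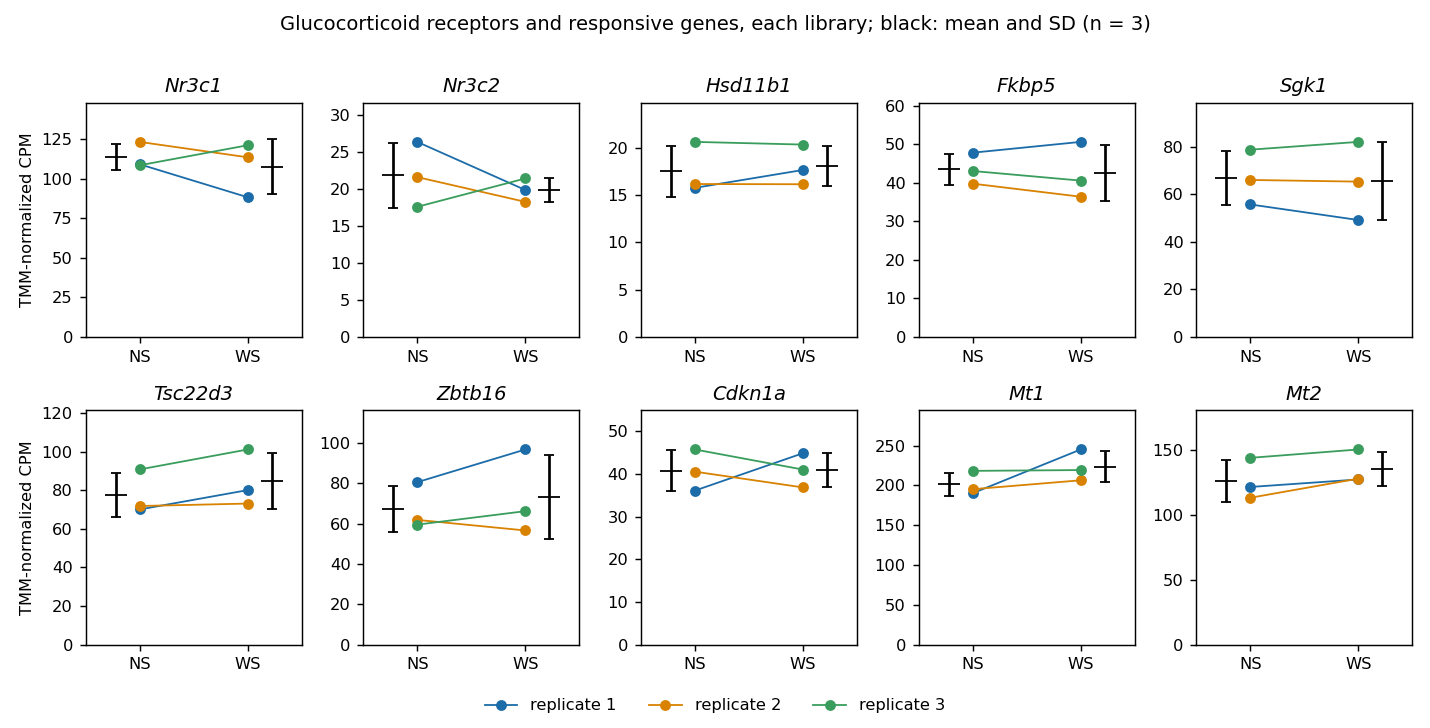
Level of each of the 10 genes in every library, as TMM-normalized CPM (y axis, from 0), in NS and WS. Lines join libraries with the same replicate number and black bars give the mean and SD of 3 libraries. The NS and WS values overlap in all 10 panels, and in the Sgk1 panel the lines keep their order, with replicate 1 lowest and replicate 3 highest on both sides.

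Levels are given as CPM, which are read counts scaled by edgeR to a common library size corrected by the TMM method. Each library held between 15660395 and 17276168 counts over the listed genes, and the counts of the 10 genes ran from 250 to 4136. The samples are bulk tissue, in which fewer cells of a type and less RNA per cell cannot be told apart. Cortical excitatory neuron markers (9 genes, among them Slc17a7, Cux2 and Tbr1), which mark the labelled tissue, summed to between 3032 and 3184 CPM in NS and between 2716 (replicate 3) and 3398 CPM (replicate 1) in WS. The groups did not overlap in 4 of the 9, against 6.27% of all tested genes. Cux1 and Rorb were higher and Fezf2 and Rasgrf2 lower in WS, and 0 of the 9 passed an unadjusted p of 0.05 by edgeR.

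Both receptors were expressed, and no difference between WS and NS was detected for either. Nr3c1, which encodes the glucocorticoid receptor and lies on chromosome 18, had 109.3, 123.5 and 108.6 CPM in NS replicates 1, 2 and 3 and 88.4, 113.7 and 121.3 CPM in WS replicates 1, 2 and 3. WS replicate 1 was the lowest of the 6 and NS replicate 2 the highest, so the groups overlapped. Its log2 fold change was -0.08 ± 0.11 (SE), and the 95% interval of the fold ran from 0.800 to 1.12. Nr3c2 (chr8:76899442-77245012, plus strand, GRCm38) encodes the mineralocorticoid receptor, which binds the same hormone more tightly. It had 26.4, 21.6 and 17.6 CPM in NS replicates 1, 2 and 3 and 19.8, 18.2 and 21.4 CPM in the WS replicates in the same order. NS replicate 1 stood highest and NS replicate 3 lowest, with all WS values between them. The log2 fold change was -0.14 ± 0.14, with a fold interval of 0.736 to 1.12.

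Scaled to the length of the gene's exons, Nr3c1 was the more abundant receptor, with 14.8 CPM per kb in NS and 14.0 in WS, against 3.37 and 3.06 CPM per kb for Nr3c2. The ratio of Nr3c1 to Nr3c2 per kb was 3.50, 4.82 and 5.21 in NS replicates 1, 2 and 3. It was 3.75, 5.25 and 4.77 in WS replicates 1, 2 and 3. The ratio was lowest in replicate 1 of both groups, and the groups overlapped.

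Hsd11b1 (chr1:193221634-193264075, minus strand), the enzyme that turns inactive 11-keto steroids back into active glucocorticoids within the cell, had overlapping groups as well. It had 15.8, 16.2 and 20.6 CPM in NS replicates 1, 2 and 3 and 17.7, 16.1 and 20.3 CPM in WS. Replicate 3 was the highest of both groups. The log2 fold change was 0.04 ± 0.13, with a fold interval of 0.844 to 1.26. The gene overlaps Lamb3 on the other strand, and strand use in counting is not stated, so reads of this pair may not be separated. Fkbp5, Nr3c2, Cdkn1a and Mt2 overlap non-coding transcripts in the same way, and the other 5 genes overlap none. H6pd, which supplies the cofactor of Hsd11b1 in the endoplasmic reticulum, had 7.94, 8.86 and 9.57 CPM in NS and 10.01, 10.02 and 11.7 CPM in WS. All WS values lay above all NS values, with a log2 fold change of 0.27 ± 0.13 that did not pass the test (unadjusted p = 0.0647 and adjusted p = 1.00 by edgeR).

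Fkbp5, Sgk1, Tsc22d3 and Zbtb16 are the targets read most often as a sign of glucocorticoid action, and 0 of these 4 passed the test between WS and NS. Fkbp5 (chr17:28399094-28517527, minus strand) encodes a co-chaperone that lowers the receptor's affinity for the hormone and is induced by that receptor. It had 47.8, 39.8 and 43.0 CPM in NS replicates 1, 2 and 3 and 50.6, 36.4 and 40.5 CPM in the WS replicates. Replicate 1 was highest and replicate 2 lowest in both groups, and the WS range enclosed the NS range. The mean was 43.5 ± 4.04 CPM (SD, n = 3) in NS and 42.5 ± 7.31 CPM in WS. The log2 fold change was -0.03 ± 0.13 and the fold interval 0.808 to 1.18, so a rise of Fkbp5 above 1.18-fold lay outside the interval.

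Sgk1 (chr10:21882184-21999903, plus strand) encodes a kinase that acts on ion channels and transporters and is induced by both receptors. Its NS values were 55.7, 66.0 and 78.8 CPM in replicates 1, 2 and 3, and its WS values were 49.2, 65.3 and 82.0 CPM. The order was the same in both groups and the WS range enclosed the NS range. The mean was 66.8 ± 11.5 CPM (SD, n = 3) in NS and 65.5 ± 16.4 CPM in WS, with a log2 fold change of -0.03 ± 0.17 and a fold interval of 0.760 to 1.26.

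Sgk1 is also the member whose start region holds the full sequence that the receptor is known to bind, so that region is shown. Receptor dimers bind a palindrome of AGAACA and TGTTCT with 3 free bases between them. The letters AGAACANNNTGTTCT, which read the same on both strands, were searched in RefSeq promoter windows (GRCm38.p6, from 250 bases before to 50 bases after a start), and 3 of 32851 windows held them, or 0.00913%. A half-site alone, AGAACA on either strand, which the full palindrome also contains, was in 16.1% of windows. Of the 10 genes, 8 matched a window by symbol, with 16 windows in all. The full palindrome was in 1 of these 16, a window of Sgk1, and a half-site was in 4 of the 16, which were 3 of the 6 windows of Sgk1 and 1 of the 3 of Tsc22d3. The 250 bases before that start of Sgk1 lie at chr10:21993640-21993889 on the plus strand, directly before the first exon of a shorter Sgk1 transcript and within an intron of the longer ones. The capitals mark the palindrome, 189 to 175 bases before the start, and a further half-site near the left end.
Sgk1: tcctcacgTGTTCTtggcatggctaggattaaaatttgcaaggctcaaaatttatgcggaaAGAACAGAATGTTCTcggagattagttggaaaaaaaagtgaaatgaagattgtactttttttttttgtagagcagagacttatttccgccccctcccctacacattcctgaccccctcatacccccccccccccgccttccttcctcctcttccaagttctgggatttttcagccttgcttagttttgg
A match describes the letters and does not show that the receptor was bound there in these samples.

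Tsc22d3 (chrX:140539528-140600659, minus strand), also known as Gilz, encodes a leucine zipper protein that carries part of the anti-inflammatory action of glucocorticoids. It had 70.0, 71.8 and 90.8 CPM in NS replicates 1, 2 and 3 and 80.1, 73.1 and 101.2 CPM in WS. Replicate 3 was highest in both groups, and each WS library was above the NS library of the same number, although the groups overlapped. The log2 fold change was 0.13 ± 0.13, with a fold interval of 0.897 to 1.33. Zbtb16 (chr9:48654297-48836222, minus strand), a zinc finger repressor that glucocorticoids induce in many cell types, had 80.6, 61.9 and 59.5 CPM in NS and 96.8, 56.6 and 66.2 CPM in WS. Here replicate 1 stood above the others in both groups. The log2 fold change was 0.12 ± 0.18, and its fold interval, 0.834 to 1.42, reached highest of the 10.

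Cdkn1a and the metallothioneins answer to glucocorticoids but also to other signals, DNA damage through p53 in the first case and zinc in the second. Cdkn1a (chr17:29090976-29100727, plus strand), the cyclin-dependent kinase inhibitor p21, had 36.1, 40.6 and 45.8 CPM in NS and 44.9, 36.9 and 41.1 CPM in WS. The ranges were nearly the same and the order of the replicates was not. Its log2 fold change was 0.00 ± 0.11, with a fold interval of 0.846 to 1.19.

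Mt1 (chr8:94179082-94180327, plus strand) and its neighbour Mt2 (chr8:94172664-94173568, plus strand) encode small proteins that bind zinc and copper. Mt1 had 190.0, 195.1 and 218.1 CPM in NS and 245.0, 206.3 and 219.2 CPM in WS. WS replicate 1 was the highest library and each WS library was above its NS counterpart in number, but NS replicate 3 lay above WS replicate 2. The mean was 201.1 ± 14.99 CPM (SD, n = 3) in NS and 223.5 ± 19.7 CPM in WS. The log2 fold change was 0.15 ± 0.09, which was the largest of the 10, with a fold interval of 0.974 to 1.27. Without WS replicate 1 it was 0.082, below the 0.17 of Tsc22d3. An exact two-sided permutation test over the 3 and 3 libraries gave p = 0.2, where the smallest p that it can give is 0.10. Mt2 had 121.4, 113.0 and 143.8 CPM in NS and 127.1, 127.8 and 150.3 CPM in WS. It too was higher in WS in 3 of 3 numbers with overlapping groups, and its log2 fold change was 0.10 ± 0.10. Per kb of exon, Mt2 (214 CPM per kb in NS and 230 in WS) and Mt1 (161 and 179) were the most abundant of the 10, and Nr3c2, Hsd11b1 (4.12 and 4.25) and Fkbp5 (4.60 and 4.49) the least. Between them lay Tsc22d3 (17.9 and 19.5), Nr3c1, Sgk1 (13.6 and 13.4), Zbtb16 (12.7 and 13.9) and Cdkn1a (11.5 and 11.5).

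**Figure D2:**
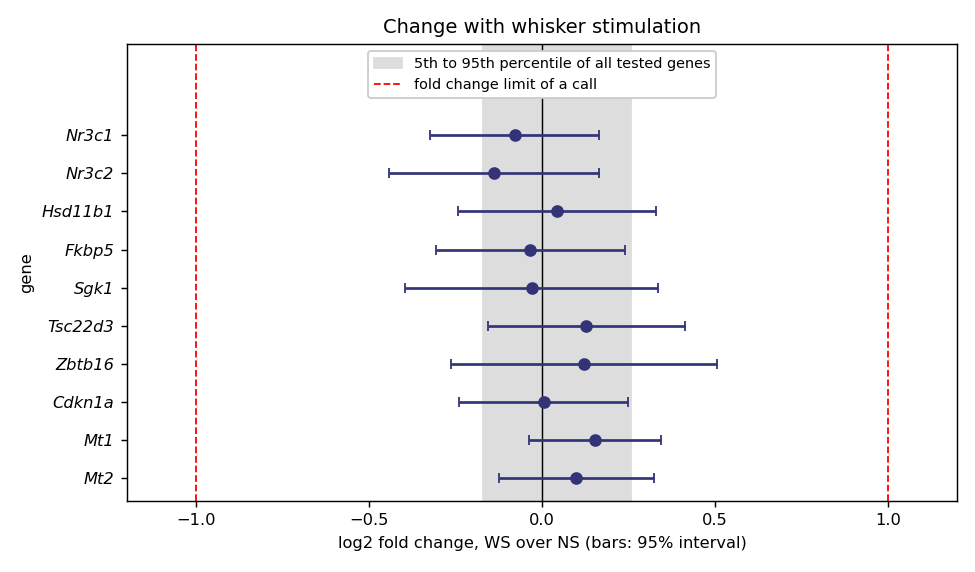
Log2 fold change of WS over NS for the 10 genes (x axis), with 95% intervals from edgeR's quasi-likelihood fit on 3 libraries a group. The grey band holds the values of all tested genes from the 5th to the 95th percentile, -0.17 to 0.26, and the dashed lines mark the fold change of 1 on the log2 scale that a call requires. All 10 intervals include 0, and all lie within the dashed lines.

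The other genes of the pathway, taken from lists made by name, also had no called gene. Of 12 chaperones that hold the receptor ready for the hormone, 4 were higher and 8 lower in WS, and the median was -0.03 on the log2 scale. Hsp90aa1 (-0.02 ± 0.08), Hsp90ab1 (0.00 ± 0.08) and Fkbp4 (0.02 ± 0.07), the co-chaperone that takes the place of Fkbp5 once hormone is bound, had log2 fold changes near 0. Of 10 coregulators that receptors recruit at their target genes, such as Ncoa1 and Ncor1, 7 were higher and 3 lower, with a median of 0.03. In both lists 0 genes passed an unadjusted p of 0.05.

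Of 12 genes that make, activate or clear steroids, 7 were tested, and Hsd11b2, Srd5a2, Cyp11b1, Hsd3b2 and Sts were not in the list of genes. H6pd was among the 5 that were higher, the other 2 were lower, and the median was 0.09. Of 16 tested genes of the central stress system, one of them Nr3c1 itself, 6 were higher and 10 lower, with a median of -0.02. Crh, the peptide that starts the hormonal stress response in the hypothalamus and is also made by cortical interneurons, had 7.31, 7.55 and 7.52 CPM in NS and 9.01, 7.61 and 5.75 CPM in WS. Its WS libraries spread further than its NS libraries on both sides, and the log2 fold change was 0.00 ± 0.17.

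The largest list held 24 further targets of glucocorticoids, of which 23 were tested and Pnmt was not listed. Of these, 19 were higher and 4 lower in WS, where 53% of all genes were higher, and the median was 0.08 on the log2 scale. None of the 23 passed an unadjusted p of 0.05 by edgeR. The clock gene Per1, with 57.7, 76.7 and 77.5 CPM in NS and 65.8, 75.2 and 82.4 CPM in WS, had a log2 fold change of 0.08 ± 0.12. Values were 0.02 ± 0.09 for Klf9, 0.09 ± 0.14 for Ddit4, 0.01 ± 0.09 for Errfi1 and 0.07 ± 0.11 for Nfkbia, all with overlapping groups. Plin4, a lipid droplet protein, had 2.14, 2.56 and 2.42 CPM in NS and 3.44, 2.72 and 3.22 CPM in WS. Its WS values were all above its NS values, with a log2 fold change of 0.40 ± 0.21 that did not pass the test (unadjusted p = 0.0788 and adjusted p = 1.00 by edgeR). Mfsd2a was likewise higher without overlap, with 36.3, 41.6 and 41.2 CPM in NS and 46.4, 42.7 and 47.1 CPM in WS. Its log2 fold change was 0.19 ± 0.09 (unadjusted p = 0.0616 by edgeR). The groups thus did not overlap in 2 of the 23, against 6.27% of all genes. Endothelial markers were higher in WS in 15 of 15 genes (14 with library totals as the scale), with summed levels of 477 to 540 CPM in NS and 509 to 593 CPM in WS. Astrocyte markers were higher in 10 of 10 (4587 to 5100 against 4810 to 5935 CPM). Oligodendrocyte markers were higher in 10 of 10 (8787 to 12561 against 10396 to 13934 CPM). These 3 sums overlapped between the groups. Microglia markers were higher in 9 of 10, and their sums did not overlap (508 to 534 CPM in NS and 540 to 559 CPM in WS). Meningeal fibroblast markers were also higher in 9 of 10, with a median of 0.17 and overlapping sums (241 to 281 against 241 to 337 CPM). Of all these markers, 3 passed an unadjusted p of 0.05 by edgeR. The fibroblast collagens Col3a1 (0.48 ± 0.18) and Col1a2 (0.29 ± 0.12) had unadjusted p of 0.0198 and 0.0335 and an adjusted p of 1.00 by edgeR, with groups that did not overlap. The endothelial adhesion gene Pecam1 (0.87 ± 0.18) had an adjusted p of 0.813 by edgeR, and of 0.000948 with the replicate number as a block in the model. In the hippocampus list 3 of 7 tested genes were higher. Fibcd1 of that list had a log2 fold change of 0.41 ± 0.18, with an unadjusted p of 0.0463 and an adjusted p of 1.00 by edgeR. Striatum markers, a list added after the values were seen, were higher in 10 of 10 with a median of 0.18, blood markers in 5 of 5 (4 under each other normalization) with a median of 0.03, and choroid plexus markers in 3 of 9 with a median of -0.09. The part of these markers in the medians of the target lists was not tested.

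The metal and p53 lists, which hold genes that share a signal with Mt1, Mt2 or Cdkn1a, had medians of 0.02 and 0.01. Of 10 metal response genes 8 were higher and 2 lower. Mt3, the metallothionein of the brain, had 216.95 CPM in WS replicate 1 and 148.8 to 166.9 CPM in the other 5 libraries, with a log2 fold change of 0.11 ± 0.12. WS replicate 1 was thus the highest library for both Mt1 and Mt3. Of 14 p53 targets 8 were higher and 6 lower, with 0.01 ± 0.10 for Mdm2 and -0.08 ± 0.08 for Ccng1. Phlda3, a p53 target that restrains the kinase Akt, had 21.7, 24.1 and 24.0 CPM in NS and 28.7, 26.5 and 27.1 CPM in WS. Its groups did not overlap, and its log2 fold change of 0.24 ± 0.09 had an unadjusted p of 0.0271 and an adjusted p of 1.00 by edgeR.

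**Figure D3:**
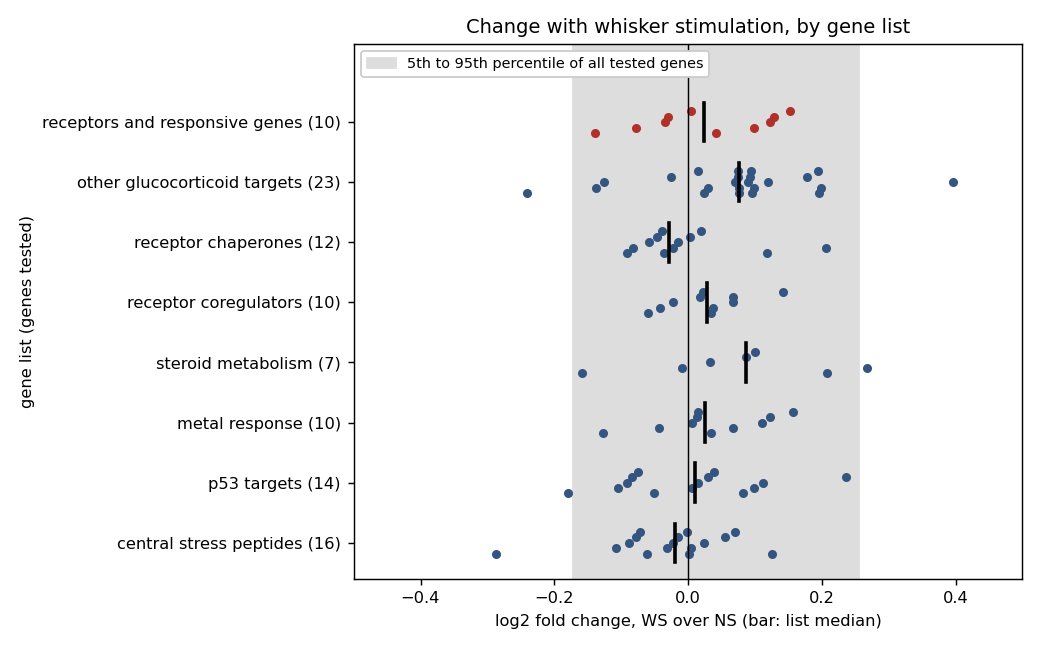
Log2 fold change of WS over NS (x axis) for every tested gene of 8 lists (y axis, number of genes in parentheses), with a black bar at the list median. The grey band runs from the 5th to the 95th percentile of all tested genes. The medians lie between -0.03 and 0.09, and Plin4, at 0.40, is the point farthest to the right.

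Libraries with different replicate numbers differed in some of the 10 genes, and all 10 varied more between libraries than the median gene. Their coefficient of variation over the 6 libraries had a median of 12.3%, against 9.35% over all tested genes, and 10 of 10 lay above the median of all genes. Mt1, at 9.38%, and Cdkn1a, at 9.73%, were close to that median. For 6 of the 10 the range between the means of the replicate numbers was larger than the largest difference between NS and WS of the same number, where 28.3% of all genes met this. The effect of the number was then tested by edgeR's quasi-likelihood test of both number terms, with the group in the model. This test was chosen after the values had been seen, and the labels do not say what a number stands for, so its p-values are a description. At an adjusted p under 0.05, 2 of the 10 genes were called, Sgk1 and Zbtb16, where 1.15% of all genes were called. At an unadjusted p under 0.05 the count was 6 of 10, where 7.79% of all genes passed. The 3 numbers stood in the same order in NS and WS in 2 of 10 genes, Fkbp5 and Sgk1, against 17% of all genes.

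Sgk1 was lowest and Zbtb16 highest in number 1. For Sgk1 the log2 difference was 0.33 ± 0.12 for replicate 2 over replicate 1 and 0.62 ± 0.12 for replicate 3 over replicate 1 (adjusted p = 0.0146 by edgeR), while NS and WS of the same number differed by at most 0.18. For Zbtb16 it was -0.58 ± 0.12 for replicate 2 and -0.50 ± 0.12 for replicate 3, each against replicate 1 (adjusted p = 0.0146 by edgeR). Sgk1 and Zbtb16 thus differed between numbers in opposite directions, and the cause was not tested. Tsc22d3 was higher in number 3 than in number 1 by 0.36 ± 0.12 and Fkbp5 lower by 0.24 on the log2 scale, and neither passed (adjusted p = 0.164 and 0.397 by edgeR). With the number in the model, the fold interval of WS over NS was 0.843 to 1.12 for Sgk1 and 0.927 to 1.24 for Zbtb16.

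With each library left out in turn, Sgk1 was called by number in 5 of 6 fits and Zbtb16 in 4 of 6. Without WS replicate 1, 0 of the 10 were called. The log2 difference of replicate 3 from replicate 1 was then 0.51 for Sgk1 (adjusted p = 0.193 by edgeR) and -0.37 for Zbtb16 (adjusted p = 0.498 by edgeR). Without WS replicate 2, Sgk1 was called at 0.62 (adjusted p = 0.0458 by edgeR), and Zbtb16 was not called at -0.50 (adjusted p = 0.229 by edgeR). Without NS replicate 3, Fkbp5 was called as well.

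Other glucocorticoid targets also differed between numbers. Dusp1, a phosphatase induced by glucocorticoids and by neural activity, had 20.6, 40.6 and 63.8 CPM in NS replicates 1, 2 and 3 and 22.3, 42.1 and 58.7 CPM in WS. Each number had nearly the same level in NS and WS, and number 3 was above number 1 by 1.51 on the log2 scale (adjusted p = 6.35e-08 by edgeR), while the log2 fold change of WS over NS was -0.03 ± 0.36. Btg2, from the p53 list and likewise an activity-induced gene, had 15.6, 24.8 and 40.4 CPM in NS and 17.3, 24.6 and 35.1 CPM in WS (adjusted p = 1.93e-05 by edgeR for the number). Angptl4 went the other way, with 4.10, 1.87 and 1.74 CPM in NS and 4.09, 2.29 and 1.96 CPM in WS (adjusted p = 0.0300 by edgeR for the number). Of the 23 further targets, Dusp1 and Angptl4 were called by number, where 1.15% of all genes were. At an unadjusted p of 0.05, 9 of the 23 passed by edgeR, against 7.79% of all genes. The 3 numbers stood in the same order in NS and WS in 11 of the 23, against 17% of all genes. Per1, at 0.37 between numbers 3 and 1, did not pass the adjusted test (0.319).

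**Figure D4:**
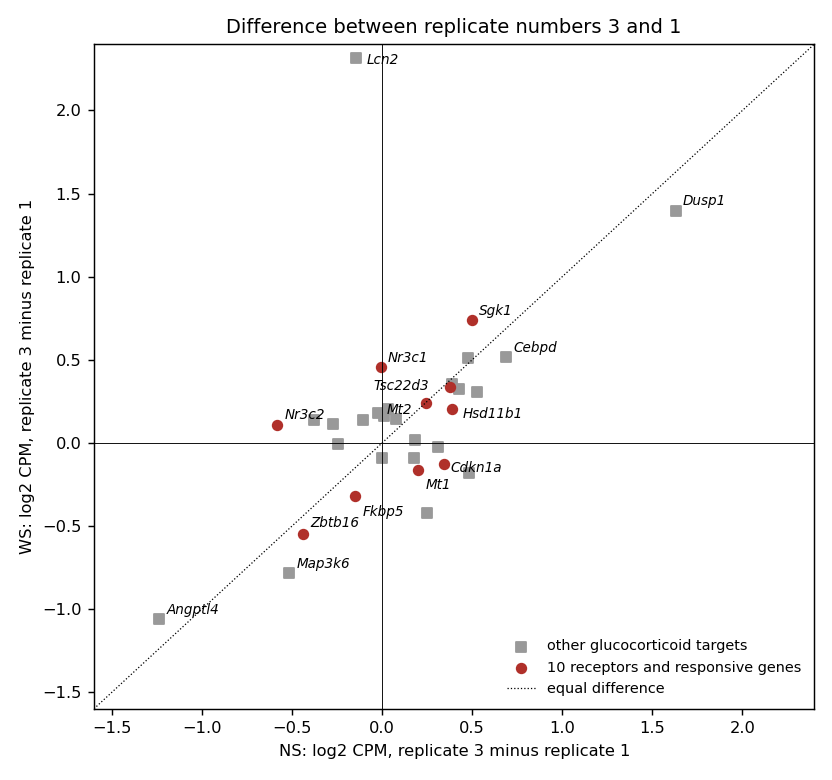
Difference between replicate 3 and replicate 1 in log2 CPM, in NS (x axis) and in WS (y axis), for the 10 genes (red circles) and 23 other glucocorticoid targets (grey squares). Points on the dotted line have an equal difference on both sides. Dusp1, Sgk1, Zbtb16 and Angptl4 lie near the line and away from 0, while Nr3c1, Nr3c2, Cdkn1a and Mt1 have opposite signs in NS and WS. The sign was the same in 6 of the 10 and 13 of the 23, and in 50.9% of all tested genes.

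Markers of other tissue also moved with the number, where 1.15% of all genes were called and 7.79% passed an unadjusted p of 0.05 by edgeR. Oligodendrocyte markers summed to 8787 and 10396 CPM in replicate 1 of NS and WS, and to between 11901 and 13934 CPM in replicates 2 and 3, and 10 of 10 of them passed an unadjusted p of 0.05 for the number. Choroid plexus markers, of which Ttr was not listed, summed to 495, 706 and 888 CPM in NS and 304, 1012 and 648 CPM in WS, and 9 of 9 were called by number. Striatum markers summed to 359, 487 and 499 CPM in NS and 366, 750 and 351 CPM in WS, with 5 of 10 called. Replicate 1 was the lowest library of both groups for the oligodendrocyte and choroid plexus sums. The hippocampus sum was highest in replicate 1 of both groups, at 225, 192 and 168 CPM in NS and 237, 196 and 169 CPM in WS. Its largest part was Wfs1, which was called among 7 tested. Wfs1 had 141.7, 114.2 and 98.9 CPM in NS and 166.8, 118.2 and 82.5 CPM in WS. The list did not move as a whole, as Prox1 was lowest in replicate 1 of both groups (17.4 CPM in NS and 15.2 in WS). Of the meningeal fibroblast markers, Dcn and Slc22a6 were called and were highest in replicate 1 of both groups. The list as a whole was not, with sums of 281, 241 and 259 CPM in NS and 276, 337 and 241 CPM in WS. For blood, whose markers summed to between 422 and 766 CPM, 2 of 5 genes were called. Of the cortical neuron markers 1 was called, Foxp2 (adjusted p = 0.0362 by edgeR). Of the astrocyte, microglia and endothelial markers 0 were called by number in edgeR's test, and 5 of them passed an unadjusted p of 0.05. The part of these markers in the differences of Sgk1, Zbtb16 and Dusp1 between numbers was not tested.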

How the data were processed

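RNA-seq of 6 libraries (3 NS, 3 WS) was made by the authors on a DNBseq instrument, with reads aligned by HISAT2 (genome build mm10 per the submitters' processing notes). RNA was accepted by the study at a low integrity limit. The counting tool, annotation and strand setting are not given in the sources used here. For each gene the authors deposited the mean of its estimated counts over the 6 libraries with the SD. They also deposited 1 score per library, a z-score, which they made by taking the mean from the library's count and dividing by the SD. Columns of the authors' own comparison, which hold fold changes and p-values, were not used. The z-score column of WS replicate 3 is named with an added letter. It was assigned to that replicate because the deposited WS mean equals the mean of the 3 WS columns.

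Counts were computed back as mean + z-score × SD and rounded. For 13418 genes in which rounding of the deposited values left under 0.1 count of uncertainty, 91% of values lay within 0.1 of a whole number (20% by chance). The design had been written for counts, and the same test was kept. The counts of the 10 genes carried at most 0.2 count of uncertainty. No pair of libraries agreed within sampling noise by chi-square.

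WS was tested against NS with edgeR 4.0.16 (R 4.3.3; TMM, filterByExpr, quasi-likelihood, Benjamini-Hochberg over 13747 genes), with thresholds as in the study's methods, which used DESeq2. DESeq2 1.42.0 was an alternative. Permutation tests used SciPy 1.17.1. Both edgeR tests were tested on simulated counts. Gene positions and exon lengths are from GENCODE M21 on GRCm38.

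Same-numbered NS and WS libraries deviated together, with r = 0.342, 0.228 and 0.124 across 13747 genes. The numbers may therefore pair the libraries, which rests on the data and not on the labels. For number 3 this rests on genes of low count: over genes averaging 100 counts or more r was 0.376, 0.346 and 0.0677. Fold changes and intervals of WS over NS come from the fit without the number unless stated. The fit with the number as a block is therefore given as an alternative.

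Genes named in the text are the 10, a fixed set of pathway genes (among them Per1, Klf9, Ddit4, H6pd, Fkbp4, Mt3, Mdm2 and Crh), and genes of the lists with an unadjusted p under 0.05, or with groups that did not overlap and an absolute log2 fold change of at least 0.3. The genes most like Fkbp5, Sgk1 and Tsc22d3 are the 3 nearest to each by the measure given with them. Outside these rules, Btg2, Angptl4, Mfsd2a, Wfs1, Prox1, Dcn, Slc22a6, Foxp2, Cux1, Rorb, Fezf2 and Rasgrf2 were named after their values were seen. The members and lists were chosen with earlier results of these data known. Of the cortical neuron markers, 1 gene is not reported here and was left out of their sum.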

Additional observations from a re-analysis of the deposited data

How the results depend on the processing

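The count of the 10 genes called between WS and NS was 0 under all 13 alternatives (3 other normalizations, no filter or a mean of at least 50 counts, DESeq2, the replicate block, and each library left out). The lowest adjusted p among 130 values was 0.884 and the lowest unadjusted p 0.0501. In the fit with the replicate block the median log2 fold change of the 10 was 0.03 and none of their calls changed, while the marker Pecam1 went from an adjusted p of 0.813 to 0.000948 by edgeR. The median ran from -0.01 to 0.10 with 1 library left out. Since the fold changes lie near 0, 15 of the 130 changed sign, 14 of them with a library left out. Cdkn1a was -0.0018 when libraries were scaled by their totals. With a library left out, log2 fold changes ran from -0.076 to 0.095 for Cdkn1a, -0.18 to 0.059 for Fkbp5, -0.052 to 0.18 for Hsd11b1, -0.17 to 0.047 for Nr3c1, -0.27 to 0.018 for Nr3c2, -0.22 to 0.14 for Sgk1, -0.018 to 0.26 for Tsc22d3 and -0.13 to 0.27 for Zbtb16. Mt1 ran from 0.082 to 0.21 and Mt2 from 0.016 to 0.20. Under the 3 other normalizations the 10 genes split into 6 higher and 4 lower or, with library totals, 5 and 5, the 23 further targets stayed at 19 and 4, and the median of every list kept its sign. The count of all genes called between WS and NS was 4, and ran from 0 (without NS replicate 2 or NS replicate 3) to 6.

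By replicate number, a comparison chosen after seeing the data together with its alternatives, 158 genes were called, 76 with DESeq2, and 152 to 863 with a library left out. Of the 10 genes, 0 to 3 were then called. The log2 difference of number 3 from number 1 ran from 0.51 to 0.72 for Sgk1 and from -0.62 to -0.37 for Zbtb16. The cause of these changes was not tested.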

Other observations

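Genes whose pattern over the 6 libraries was most like that of 3 of the targets were found by the root mean square difference of the deviations of log2 CPM from each gene's own mean, over the 13688 genes averaging 10 counts or more. For Fkbp5 they were Traf2 (0.029), Lipe (0.043) and Gsg1l (0.048). For Sgk1 they were Polk (0.059), Clk1 (0.066) and Clcn1 (0.069), and for Tsc22d3 they were Primpol (0.021), Layn (0.051) and Sdcbp2 (0.053). With 6 points, a close match among so many genes is a description of these libraries.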
